A study of Homo sapiens with 61 samples.

Results

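The mitochondrial ribosomal protein genes described here were the 78 protein-coding genes whose symbols begin with MRPL or MRPS followed by a number, out of 19970 protein-coding genes with a promoter window in the GENCODE 44 annotation. Of these, 49 carry an MRPL symbol, given to proteins of the large subunit, and 29 an MRPS symbol, given to proteins of the small subunit. Each gene was described by its promoter window, the 2 kb before and the 2 kb after the start site of its MANE transcript. The cells were U2OS, a human osteosarcoma line. They were wild-type (WT) or ASH1L-/-, edited with CRISPR/Cas9 and grown from individual colonies, so that an effect of the genotype and a difference between clones cannot be told apart. Both genotypes were left unirradiated or exposed to 20 J/m2 of UV-C, and the irradiated cells were taken after 1 h or 3 h. ASH1L is a histone methyltransferase and XPC is the sensor of DNA damage in global-genome nucleotide excision repair. Chromatin immunoprecipitation followed by sequencing gave 18 lists of narrow peaks of H3K4me3, 3 libraries in each of the 6 groups, and 19 lists of broad peaks of XPC, 3 libraries in each group apart from 4 in unirradiated WT.

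H3K4me3 is trimethylated lysine 4 of histone H3, a mark of the nucleosomes around start sites of active or poised genes. Mitochondrial ribosomes make the few proteins that mitochondrial DNA encodes, all of them membrane subunits of the respiratory chain and of ATP synthase. Their RNA comes from mitochondrial DNA, whereas all their proteins are encoded in the nucleus, made in the cytosol and imported. Most of these proteins are needed in every cell that respires, and their genes are commonly treated as housekeeping genes. Some symbols do not match the place of the protein: MRPS18A and MRPS30 encode proteins of the large subunit, and MRPS36 encodes a subunit of the 2-oxoglutarate dehydrogenase complex, also known as KGD4.

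The promoters themselves were read from RefSeq (GRCh38.p14, the assembly whose coordinates hg38 uses), from 250 bases before to 50 bases after the start. Of the 78 genes, 69 had an entry, and 68 of those entries start at the MANE start site. MRPL2, MRPL10, MRPL13, MRPL15, MRPL21, MRPL23, MRPL35, MRPS28 and MRPS36 had none. Short motifs were searched on both strands, and the search was of exact letters, so a match is a description of the sequence. The ETS-type letters CCGGAAG stood in 30 of the 69 promoters (43.5%), beside 14.7% of all 15315 promoters in the table. The YY1-type letters AAGATGGCG stood in 13 of them (18.8%), beside 2.98% of all promoters. In 25 of the 30 promoters an ETS match began between 60 bases before and 50 bases after the start, 8 of the 30 held more than 1 match, and 10 of the 13 promoters with a YY1 match had it after the start. The other motifs were closer to their shares among all promoters. The SP1 letters GGGCGGG were found in 46.4% beside 47.5%, the CCAAT box in 29.0% beside 36.6%, and the NRF1 letters GCGCATGCG in 4.35% beside 2.80%. The ZBTB33 letters TCGCGAGA were found in 2.90% beside 1.91%, the TATA letters TATAAA in 4.35% beside 9.43%, the cyclic AMP response element TGACGTCA in 1.45% beside 2.76% and the E-box CACGTG in 7.25% beside 8.86%. The median GC content was 60.3% in the 69 promoters and 63.7% in all of them. Each motif was counted by itself, also where it overlapped a match of another.

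The bases just before the start site are printed 5′ to 3′ on the strand of the gene for 5 genes whose promoters hold ETS letters and whose H3K4me3 values are given below, with each ETS or CCAAT match in capitals. They are the last 120 bases before the start of MRPS22 (chr3:139343900-139344019, plus strand), MRPL47 (chr3:179604639-179604758, minus strand) and MRPS26 (chr20:3045932-3046051, plus strand). For MRPL43 (chr10:100987498-100987542, minus strand) and MRPL27 (chr17:50373185-50373228, minus strand) they are only the 45 and 44 bases that separate the start from that of the neighbouring gene on the other strand. An ETS match lies within these short spacers.
MRPS22: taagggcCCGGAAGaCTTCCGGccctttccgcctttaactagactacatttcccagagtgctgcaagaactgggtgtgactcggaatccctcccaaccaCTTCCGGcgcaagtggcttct
MRPL47: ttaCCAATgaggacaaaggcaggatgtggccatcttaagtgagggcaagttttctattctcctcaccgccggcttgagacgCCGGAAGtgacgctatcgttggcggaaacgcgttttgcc
MRPS26: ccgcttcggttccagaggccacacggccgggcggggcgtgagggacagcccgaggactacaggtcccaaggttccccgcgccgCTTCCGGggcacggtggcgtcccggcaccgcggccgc
MRPL43: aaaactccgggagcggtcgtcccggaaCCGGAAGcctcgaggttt
MRPL27: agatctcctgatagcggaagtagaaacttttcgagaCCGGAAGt

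Next to these, the 120 bases before MRPS12 (chr19:38930824-38930943, plus strand), whose protein lies at the decoding centre of the small subunit, hold 2 CCAAT boxes. The 120 bases before MRPS15 (chr1:36464385-36464504, minus strand), MRPL44 (chr2:223957343-223957462, plus strand) and MRPL28 (chr16:370539-370658, minus strand) are also shown. MRPS15 and MRPL44 had the largest called differences between genotypes in the UV change of the height of the mark. MRPL28 had the largest called difference in height between the unirradiated genotypes. MRPL27, printed above with its ETS match, came next after MRPL44 (-1.27 on the log2 scale). The 120 bases of MRPS15, MRPL44 and MRPL28 hold none of the ETS, YY1, NRF1 or CCAAT letters. Outside them, the searched promoter of MRPL28 has an ETS match from position 8 after the start. MRPS15 has a CCAAT match from position 7 after the start, and MRPL44 has one from position -227.
MRPS12: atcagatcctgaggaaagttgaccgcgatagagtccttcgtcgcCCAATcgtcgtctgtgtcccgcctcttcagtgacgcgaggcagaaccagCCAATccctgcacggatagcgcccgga
MRPS15: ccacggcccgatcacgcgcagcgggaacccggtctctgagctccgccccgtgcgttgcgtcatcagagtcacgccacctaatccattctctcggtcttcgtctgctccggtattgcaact
MRPL44: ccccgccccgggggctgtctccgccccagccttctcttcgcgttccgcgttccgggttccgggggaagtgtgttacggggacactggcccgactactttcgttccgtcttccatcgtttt
MRPL28: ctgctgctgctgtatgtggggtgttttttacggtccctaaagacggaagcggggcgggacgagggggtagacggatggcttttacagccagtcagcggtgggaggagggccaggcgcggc

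MRPS11 and MRPL46 are the only members of the family that share a promoter. Their starts lie on opposite strands 320 bp apart on chromosome 15. The 250 bases before the start of MRPS11 (chr15:88467458-88467707, plus strand) run towards MRPL46. These bases hold none of the ETS, YY1, NRF1 or CCAAT letters. Outside them, MRPL46 has a YY1 match from position 9 after its own start.
MRPS11: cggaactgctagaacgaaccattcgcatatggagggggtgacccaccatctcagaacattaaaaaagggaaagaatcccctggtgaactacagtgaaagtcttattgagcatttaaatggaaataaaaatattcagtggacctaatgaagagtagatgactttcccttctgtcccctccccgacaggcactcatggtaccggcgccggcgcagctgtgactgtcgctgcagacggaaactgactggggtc

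The lists give no read depth, and the read counts that the study reports for each library were not used here. H3K4me3 lists held 72984 to 142688 peaks covering 70.1 to 132 Mb, and XPC lists held 326438 to 500000 peaks. Of the 8 genes chosen as markers of bone or mesenchymal cells, VIM, SPARC, PRRX1, COL1A1 and RUNX2 had H3K4me3 at the promoter in 18 of 18 libraries, whereas ALPL, COL1A2 and TWIST1 had none in any. PTPRC, CD3E, ALB, CDH1 and PECAM1, markers of blood, liver, epithelial and endothelial cells, were at 0 in all 18 libraries, CDH5 was covered in 1, KRT5 in 4 and APOA1 in 16, by at most 543 bp. The ASH1L promoter was covered over 2731 bp on average in unirradiated WT and 2752 bp in unirradiated ASH1L-/- cells, and since the deletions lie in exons outside this window it does not check the genotype. In bulk chromatin, a peak present in fewer cells and a weaker mark in each cell cannot be told apart.

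In unirradiated WT cells nearly every mitochondrial ribosomal protein promoter carried H3K4me3. Peaks were present in 18 of 18 libraries at 76 of the 78 promoters (97.4%), compared with 66.8% of all protein-coding promoters. The median member was covered over 2422 bp, with an interquartile range of 1939 to 2909 bp. Genes with MRPL symbols (median 2423 bp, n = 49) and with MRPS symbols (2421 bp, n = 29) had nearly the same median. The cytosolic ribosomal protein genes, which make the ribosomes outside mitochondria, had longer coverage (median 2955 bp, n = 77). A list of 62 other genes of mitochondrial translation had a median of 2610 bp, and all protein-coding promoters with coverage in at least 3 libraries had 2325 bp. The highest fold enrichment over input that MACS2 gave to a peak in the window had a median of 12.1 over members, 13.2 over cytosolic ribosomal protein genes, 11.6 over the other mitochondrial translation genes and 9.35 over all genes with a peak. These are descriptions of the lists, and no test was made between them.

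Averaged over the 78 members, the covered part of the window was not symmetric. In unirradiated WT 98.2% of the bases were under a peak in the most covered bin, 525 bp after the start, 94.2% just before the start, 86.9% at 1 kb after it and 49.2% at 1 kb before it. One hour after UV in WT these shares were 97.4% just before the start, 96.7% at 1 kb after it and 56.9% at 1 kb before it. In unirradiated ASH1L-/- cells they were 91.4%, 94.9% and 49.7%. The profile thus sat mostly over the beginning of the gene body in all groups. Over all protein-coding genes in unirradiated WT the shares were 55.8% just before the start, 54.4% at 1 kb after it and 29.0% at 1 kb before it. A skew to the downstream side was thus seen outside the family too.

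**Figure D1:**
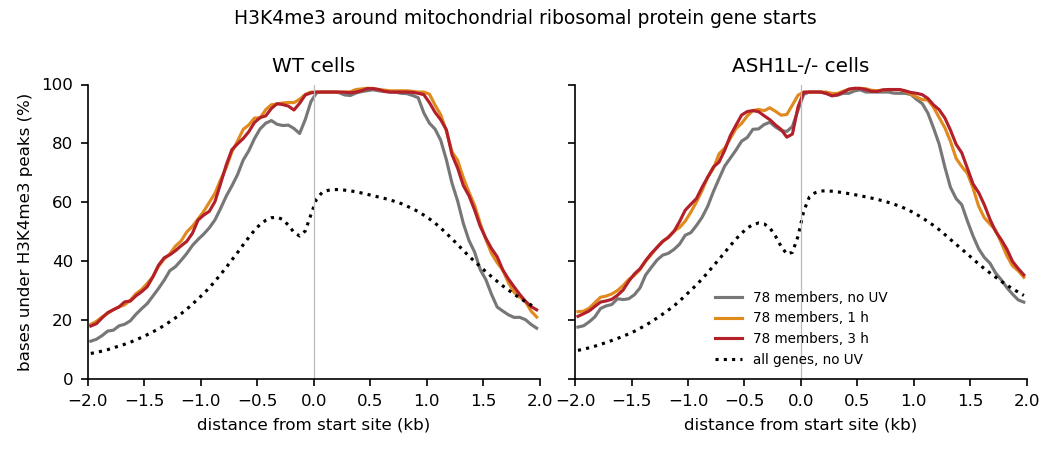
Share of the bases of the 78 mitochondrial ribosomal protein windows under H3K4me3 peaks (vertical axis, percent, mean of 3 libraries per group) against the distance from the start site (horizontal axis, kb, negative values upstream), in WT cells (left) and ASH1L-/- cells (right). Solid lines are the members without UV, at 1 h and at 3 h, and the dotted line is all protein-coding genes without UV. In unirradiated WT the share is highest after the start, at 98.2%, and is lower 1 kb before it, at 49.2%, than 1 kb after it, at 86.9%.

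Members whose start faces that of another gene were covered over a longer stretch. A start site of another protein-coding gene lay on the opposite strand within 1 kb upstream of 26 of the 78 members (33.3%), compared with 9.49% of all protein-coding genes and 12.5% of those with covered windows. The 26 members with such a head-to-head partner were covered over a median of 2994 bp, and the 52 without one over 2160 bp. The gap lay upstream, where the medians were 1629 and 698 bp, while downstream they were 1372 and 1341 bp. Among all genes with a partner the median was 3056 bp and among those without one, over covered windows, 2211 bp, so the same gap is seen outside the family. The closest pairs were MRPL27 with EME1 (45 bp), MRPL43 with TWNK (46 bp), which encodes the mitochondrial DNA helicase, and MRPL21 with IGHMBP2 (59 bp). Other partners also have roles in mitochondria. MRPS12 faces SARS2, the mitochondrial seryl-tRNA synthetase, at 181 bp, MRPL47 faces NDUFB5, a subunit of respiratory complex I, at 156 bp, and MRPS27 faces PTCD2 at 133 bp. MRPL49 faces FAU, which encodes a protein of the cytosolic small subunit, at 187 bp. In each such pair the mark over the window belongs to both genes, and the values of the 2 starts are not independent.

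The most widely covered members in unirradiated WT approached the full 4000 bp. MRPL18 was covered over 3825, 3816 and 4000 bp (mean 3880 ± 104 SD, n = 3) and faces TCP1, a subunit of the cytosolic chaperonin, at 865 bp. MRPL13 followed with 3608, 4000 and 4000 bp and MRPL32, whose protein is matured by a protease of the inner membrane, with 3730, 3477 and 4000 bp. MRPS18C had 3457, 3650 and 3978 bp, and MRPL50 had 3548, 3459 and 3868 bp. Neighbours in this order overlapped in their library values, and at this length the window itself limits the measure, so that no increase beyond 4000 bp can be seen.

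At the other end, MRPL23, whose protein lies at the exit of the nascent chain tunnel, had no peak in its window in any of the 18 H3K4me3 or 19 XPC lists. Its start is at position 1947332 of chromosome 11 (hg38, plus strand). The nearest H3K4me3 peak lay 2869 to 81794 bp to the left of the start and 110579 to 138935 bp to the right, depending on the library, and the nearest XPC peak 2627 to 12132 bp to the left and 95933 to 128584 bp to the right. A stretch of chromosome without peaks of either antibody thus surrounded this promoter in every list. The study removed blacklisted regions and reads of low mapping quality before calling peaks. Whether this filter emptied the stretch was not tested, so an absent mark and an unmeasured promoter cannot be told apart. MRPL45, whose protein tethers the ribosome to the inner membrane, was covered over 539, 573 and 779 bp (mean 630 ± 130 SD, n = 3) and was at 0 in 1 of the 18 libraries, unirradiated ASH1L-/- replicate 3. No peak of either antibody lay over its start site itself in any list, and whether the filter removed reads there was not tested. The next shortest were MRPL34 (1069, 978 and 1395 bp), MRPL11 (1249, 1126 and 1363 bp), which forms the base of the stalk that binds translational GTPases, and MRPL52 (1168, 1350 and 1643 bp).

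**Figure D2:**
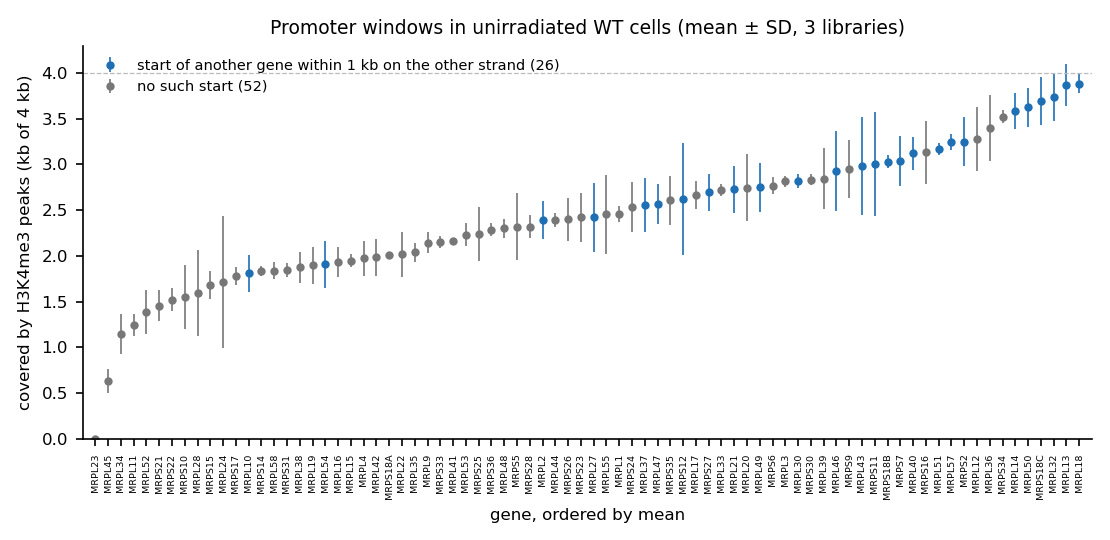
H3K4me3-covered length of the promoter window in unirradiated WT cells (vertical axis, kb of 4 kb, points are means and bars the SD of 3 libraries) for each of the 78 members, ordered by the mean, with the 26 members that have a head-to-head partner in blue. The lengths run from 0 bp for MRPL23 to 3880 bp for MRPL18, and the members with a partner lie mostly in the upper part.

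UV irradiation was followed by longer H3K4me3 peaks at these promoters in WT cells, on the scale of the lengths as called, and so was it at promoters in general. Comparing the mean of the 1 h and 3 h groups with the unirradiated group, 22 of 77 members tested gained covered length and 0 lost it at an adjusted p under 0.05, beside 30.5% and 0.0271% of all 14745 windows tested. The median change was 237 bp over members and 203 bp over all windows, and the change was positive for 74 of 77 members. On scaled lengths this direction did not hold. With each library scaled to an equal total over all windows, 3 members were called higher and 6 lower, beside 854 and 1796 of the 14745 windows. With each scaled to an equal length of all its peaks, 0 were called higher and 37 lower, beside 390 and 7712 windows. In 13 of 77 members all 6 irradiated libraries were above all 3 unirradiated ones, beside 22.2% of all windows. The count of 22 rested heavily on the unirradiated WT libraries, as did that over all windows. The member count was 10 without replicate 1, 3 without replicate 2 and 46 without replicate 3, beside 2631, 910 and 6742 windows called higher. The count was 14, 13 and 14 without 1 h replicate 2, 3 h replicate 1 and 3 h replicate 3. Beside these stood 3044, 3170 and 3039 windows.

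The 5 largest gains in WT were those of MRPS11, MRPS22, MRPS18B, MRPL43 and MRPS15. MRPS22, a protein found only in mitochondrial ribosomes, was covered over 1420, 1490 and 1658 bp without UV, 1951, 2222 and 2297 bp at 1 h and 1980, 2252 and 2234 bp at 3 h. All 6 irradiated libraries were above the 3 unirradiated ones, and the change was 633 ± 89.7 bp (SE, adjusted p = 0.000603). MRPS18B, one of 3 homologues of a single bacterial protein, went from 3049, 2955 and 3090 bp to 3830, 3664 and 3472 bp at 1 h and 3780, 3685 and 3550 bp at 3 h. Its groups did not overlap either, with a change of 632 ± 87.7 bp (adjusted p = 0.000564). Both calls held when any 1 library was left out, and under scaling to an equal total MRPS22 kept a call (452 bp, adjusted p = 0.00506) while MRPS18B did not (288 bp, adjusted p = 0.0569). Scaled to an equal length of all peaks, the changes of MRPS22 and MRPS18B were 11.5 and -535 bp.

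The other gains were less even. MRPS11 rose from 2598, 2770 and 3650 bp to 3429, 3790 and 3821 bp at 1 h and 3606, 3499 and 3847 bp at 3 h (659 ± 200 bp, adjusted p = 0.0261), and the third unirradiated library lay within the range of the irradiated ones. Its partner MRPL46, whose window overlaps, rose by 484 ± 160 bp (adjusted p = 0.0351). MRPL43 had 3076, 2404 and 3465 bp without UV, 3631, 3437 and 3448 bp at 1 h and 3666, 3513 and 3893 bp at 3 h (616 ± 181 bp, adjusted p = 0.023). MRPS15 had 1695, 1520 and 1825 bp, then 2032, 2082 and 2301 bp, then 2042, 2087 and 2894 bp (560 ± 178 bp, adjusted p = 0.0309), with no overlap between the irradiated and unirradiated libraries. Without unirradiated replicate 2 the calls of MRPS11, MRPL43 and MRPS15 were lost (adjusted p = 0.16, 0.194 and 0.166). MRPS11 also lost its call without unirradiated replicate 1 or 3 h replicate 3 (adjusted p = 0.128 and 0.052), and MRPS15 without unirradiated replicate 1 or 1 h replicate 3 (0.0715 and 0.055). Scaled to an equal length of all peaks, the changes of MRPS11, MRPL43 and MRPS15 were -460, -519 and -133 bp. None of the 3 was called on lengths scaled to an equal total (adjusted p = 0.171, 0.153 and 0.107) or with peaks of at least 5-fold enrichment (0.21, 0.107 and 0.448). Windows of 1 kb each side were covered whole at MRPS11 and MRPL43 in every library, so their change of 0 bp there was fixed in advance. Both sides of the start took part in the gain: over the 78 members the median change in WT was 130 bp upstream and 89.9 bp downstream, positive in 70 and 69 members.

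In ASH1L-/- cells 26 of 77 members gained covered length after UV and 0 lost it, beside 24.0% and 0.258% of all windows. The median change was 221 bp over members and 174 bp over all windows, and it was positive for 70 of 77 members. Scaled to an equal total, 6 members were called higher and 5 lower, beside 561 and 868 windows. Scaled to an equal length of all peaks, 1 was called higher and 0 lower, beside 107 and 40 windows. All 6 irradiated libraries lay above all 3 unirradiated ones in 28 of 77 members, beside 24.6% of all windows. The count was 13 and 11 without unirradiated ASH1L-/- replicates 1 and 2, and 16 without 1 h replicate 1. Beside these counts stood 1944, 1187 and 2466 windows called higher. Of the 22 members called in WT and the 26 called in ASH1L-/- cells, 5 were in both (22.7% and 19.2% of the lists): MRPL38, MRPL45, MRPL54, MRPS18B and MRPS35. The overlap among all windows was not counted, so whether 5 is many or few cannot be said. A call in 1 genotype alone does not show a difference between the genotypes, which is tested below.

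MRPS36 had the largest gain in ASH1L-/- cells. Its window was covered over 2170, 2049 and 2133 bp without UV, 3031, 2829 and 2999 bp at 1 h and 2967, 3099 and 3017 bp at 3 h, a change of 873 ± 66.6 bp (adjusted p = 3.81e-06). MRPL45 went from 687, 215 and 0 bp to 1421, 1151 and 739 bp at 1 h and 1158, 1129 and 1055 bp at 3 h (808 ± 150 bp, adjusted p = 0.00331). It also rose in WT, from 539, 573 and 779 bp to 1132, 1175 and 1349 bp and to 1086, 720 and 1019 bp (450 ± 150 bp, adjusted p = 0.0367). Every irradiated ASH1L-/- library was above the unirradiated ones at both promoters, whereas in WT MRPL45 overlapped at 3 h. MRPS21, MRPS35 and MRPL30 followed with 594 ± 114, 560 ± 107 and 532 ± 86.9 bp (adjusted p = 0.0039, 0.00376 and 0.00188). MRPS21 went from 1549, 1682 and 1395 bp to 1855, 2064 and 1915 bp at 1 h and 2143, 2209 and 2628 bp at 3 h. These 5 calls held when any 1 library was left out. Under scaling to an equal total MRPS36, MRPL45, MRPS21 and MRPS35 kept a call (670, 756, 447 and 325 bp) and MRPL30 did not (250 bp, adjusted p = 0.133). Scaled to an equal length of all peaks, MRPL45 alone of the 5 kept a call (788 bp), and MRPS36, MRPS21, MRPS35 and MRPL30 had 591, 361, 188 and 79.8 bp (adjusted p = 0.869, 0.894, 0.9 and 0.966). With peaks of at least 5-fold enrichment MRPL45 and MRPS21 were not called (235 and 572 bp, adjusted p = 0.534 and 0.163). In windows of 1 kb each side MRPS21 was not called (246 bp, adjusted p = 0.0534). At MRPL30 such windows were covered whole in every library, so the change of 0 bp was fixed in advance.

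**Figure D3:**
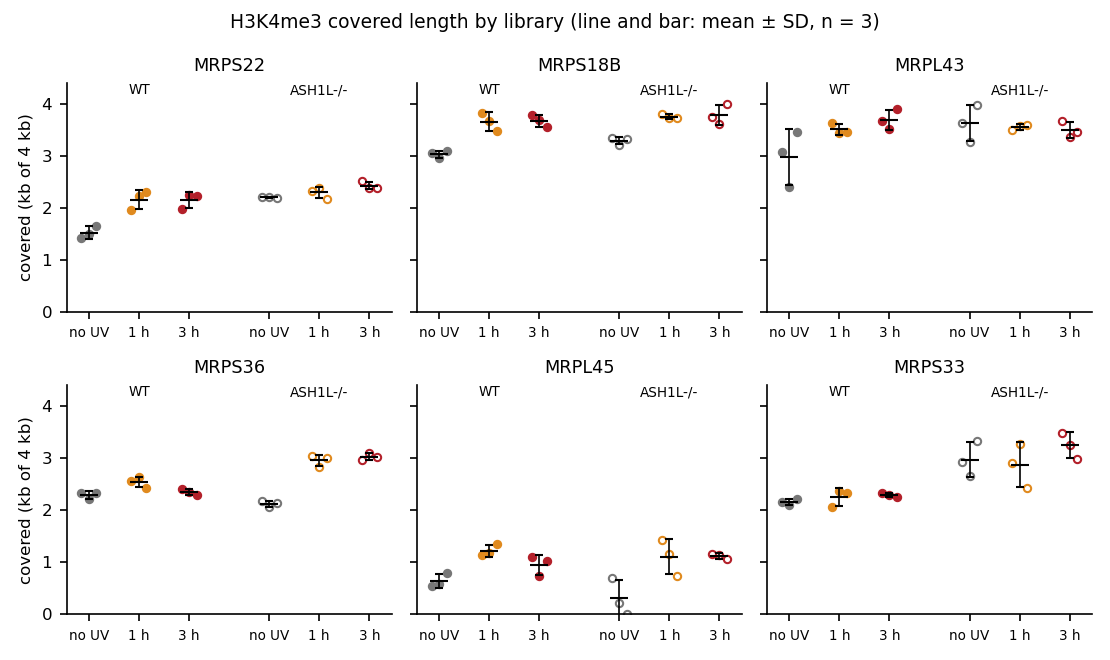
H3K4me3-covered length of the promoter window (vertical axis, kb of 4 kb) of MRPS22, MRPS18B, MRPL43, MRPS36, MRPL45 and MRPS33 in each library, in WT (filled) and ASH1L-/- cells (open) without UV and at 1 h or 3 h, with the mean and SD of the 3 libraries as line and bar. MRPS36 lies between 2049 and 2170 bp in unirradiated ASH1L-/- libraries and between 2829 and 3099 bp in irradiated ones, while its WT libraries lie between 2210 and 2627 bp.

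The UV change of covered length was called larger in ASH1L-/- than in WT cells at 1 of 77 members, MRPS36, and smaller at 0, beside 0.190% and 0.868% of all windows. In WT MRPS36 was covered over 2319, 2210 and 2335 bp without UV, 2563, 2627 and 2423 bp at 1 h and 2407, 2346 and 2287 bp at 3 h, a change of 154 bp with an adjusted p of 0.083. The change in ASH1L-/- cells exceeded this by 719 ± 94.2 bp (adjusted p = 0.0025), and the difference was called in each of the 18 fits that left out 1 library. It was 766 bp (adjusted p = 0.00191) on lengths scaled to an equal total and 1272 bp (adjusted p = 0.0908) on lengths scaled to an equal length of all peaks. Taken at 1 h alone it was 586 bp (adjusted p = 0.047) and at 3 h alone 852 bp (adjusted p = 0.00181). The gain in ASH1L-/- cells lay on both sides of the start. The fold enrichment at MRPS36 in ASH1L-/- cells was 9.37, 8.29 and 8.35 without UV, 17.8, 14.9 and 11.2 at 1 h and 6.29, 7.31 and 7.88 at 3 h. Against the unirradiated group the log2 change in height was 0.73 ± 0.23 (SE, adjusted p = 0.0169) at 1 h and -0.28 ± 0.23 (adjusted p = 0.577) at 3 h, where the length was still greater. The smallest p-values after MRPS36 belonged to MRPS22 (-472 ± 127 bp, adjusted p = 0.102) and MRPL36 (-428 ± 145 bp, adjusted p = 0.209), which were not called. In windows of 1 kb each side MRPS22 was called (-247 bp, adjusted p = 0.00409). MRPL36 turned positive on lengths scaled to all peaks and with peaks of at least 5-fold enrichment (254 and 1074 bp, neither called). Both genes were called when unirradiated WT replicate 3 was left out (adjusted p = 0.0425 and 0.00203). The count over members then was 6 (1 higher and 5 lower), beside 21 and 360 windows.

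Without UV, 4 members were covered over a longer stretch in ASH1L-/- than in WT cells and 0 over a shorter one, beside 2.88% and 1.11% of all windows. The median difference was 146 bp over members and 23 bp over all windows, positive in 60 of 77 members. MRPS33, a protein specific to mitochondrial ribosomes, had 2158, 2089 and 2213 bp in WT and 2926, 2652 and 3334 bp in ASH1L-/- cells (817 ± 192 bp, adjusted p = 0.0277). MRPS22 had 1420, 1490 and 1658 bp in WT and 2198, 2211 and 2186 bp in ASH1L-/- cells (676 ± 104 bp, adjusted p = 0.00183). MRPL47 had 2395, 2493 and 2812 bp against 3126, 3148 and 3135 bp (570 ± 120 bp, adjusted p = 0.0152), and MRPL35 had 2017, 1946 and 2153 bp against 2636, 2597 and 2474 bp (530 ± 141 bp, adjusted p = 0.0467). At all 4 promoters the 3 ASH1L-/- libraries lay above the 3 WT libraries. The call of MRPS22 held without any 1 library, that of MRPL47 was lost without WT replicate 1 (adjusted p = 0.072), that of MRPS33 without 4 of the libraries and that of MRPL35 without 13 of the 18. With peaks of at least 5-fold enrichment MRPS22, MRPS33 and MRPL35 were not called (421, 475 and 530 bp, adjusted p = 0.101, 0.0574 and 0.0548). In windows of 1 kb each side MRPS33 and MRPL35 were not called (40.7 and 56.7 bp). At MRPL47 such windows were covered whole in every library, so the difference of 0 bp was fixed in advance. The count of 4 was 2 without WT replicate 1 or 2 or ASH1L-/- replicate 1 or 3, and 17 without WT replicate 3. In the same order, 236, 269, 259, 204 and 1047 windows were called higher and 81, 422, 104, 93 and 118 lower. Scaled to an equal total the count of members was 8 (all higher), beside 635 windows higher and 533 lower. Scaled to an equal length of all peaks it was 0, beside 126 and 143 windows. At MRPS22 the irradiated ASH1L-/- libraries, 2327, 2389 and 2171 bp at 1 h and 2509, 2385 and 2380 bp at 3 h, differed from the unirradiated ones by 162 ± 89.7 bp (adjusted p = 0.18). The lengths of XPC in the 5 Mb around a promoter also differed between genotypes in places: around MRPS33 the log2 ratio of ASH1L-/- to WT without UV was 2.14, where the 95th percentile over 601 such bins was 0.61. Around MRPS22 it was -0.04. Whether the 2 measures move together was not tested.

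The height of the mark, taken as the highest fold enrichment of a peak in the window, was followed in the same way. In WT 27 of 76 members tested rose after UV and 0 fell, beside 28.5% and 0.0824% of 13343 windows with a peak in all 18 libraries. The median log2 change was 0.41 over members and 0.39 over all windows. Centred on the median of all windows in each library, which removes that common shift, 6 members were called higher and 0 lower, beside 730 and 336 windows. All 6 irradiated libraries exceeded all 3 unirradiated ones in 18 of 76 members, beside 20.6% of windows. The count of 27 became 7 without unirradiated WT replicate 2 and 15 without 1 h replicate 2, beside 737 and 2191 windows called higher. In ASH1L-/- cells 4 members rose and 0 fell, beside 3.82% and 0.292% of windows, with medians of 0.19 and 0.22, and in 9 of 76 members all 6 irradiated libraries were above the unirradiated ones, beside 8.94%. Of the 27 and 4 members called, 2 were the same, MRPL17 and MRPL28, and the overlap among all windows was not counted.

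The largest rises in WT were those of MRPL27, MRPL39, MRPL44, MRPS30 and MRPL34. MRPL27, homologous to a bacterial protein that reaches into the peptidyl transferase centre, had a fold enrichment of 9.54, 6.44 and 9.15 without UV, 17.7, 23.2 and 17.8 at 1 h and 20.2, 19.5 and 19.8 at 3 h. Every irradiated library was above every unirradiated one, and the log2 change was 1.25 ± 0.21 (SE, adjusted p = 9.23e-05). MRPL39 had 11.4, 7.23 and 16.6, then 25.7, 31.5 and 21.0, then 26.2, 25.7 and 21.4 (log2 change 1.17 ± 0.21, adjusted p = 0.000296). MRPL44, which has the fold of a ribonuclease, had 10.7, 8.08 and 16.7, then 27.4, 22.6 and 22.1, then 23.3, 26.2 and 27.2 (1.13 ± 0.21, adjusted p = 0.000282). MRPS30 and MRPL34 rose by 1.05 ± 0.23 and 1.03 ± 0.21 on the log2 scale (adjusted p = 0.00152 and 0.000668), the former not without unirradiated replicate 2 (0.76, adjusted p = 0.0616). After centring, the changes of MRPL27, MRPL39 and MRPL44 were 0.86, 0.79 and 0.74 and were still called (adjusted p = 0.00285, 0.00676 and 0.00722).

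The rises called in ASH1L-/- cells were those of MRPS26, MRPL28, MRPL17 and MRPL35, by 0.93 ± 0.23, 0.88 ± 0.22, 0.70 ± 0.20 and 0.63 ± 0.19 on the log2 scale (adjusted p = 0.02, 0.0205, 0.0365 and 0.0476). None of these calls survived the loss of every single library. On centred values MRPL17 was not called (0.49, adjusted p = 0.237). MRPS26, MRPL28 and MRPL17 each lost theirs without any of 4 libraries and MRPL35 without any of 13. The count was 0 without unirradiated replicate 1 or 3, beside 168 and 134 windows called higher. It was 1 without unirradiated replicate 2 or 1 h replicate 1, beside 109 and 142. It was 2 without 1 h replicate 2 or 3 h replicate 2, beside 344 and 251. Without 1 h replicate 3 it was 9, beside 1515. MRPS26 had 4.24, 4.55 and 4.03 without UV, 12.1, 11.8 and 7.24 at 1 h and 6.57, 5.74 and 7.24 at 3 h. All 6 irradiated libraries of MRPS26 were above the unirradiated ones, and the 2 highest were taken at 1 h.

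**Figure D4:**
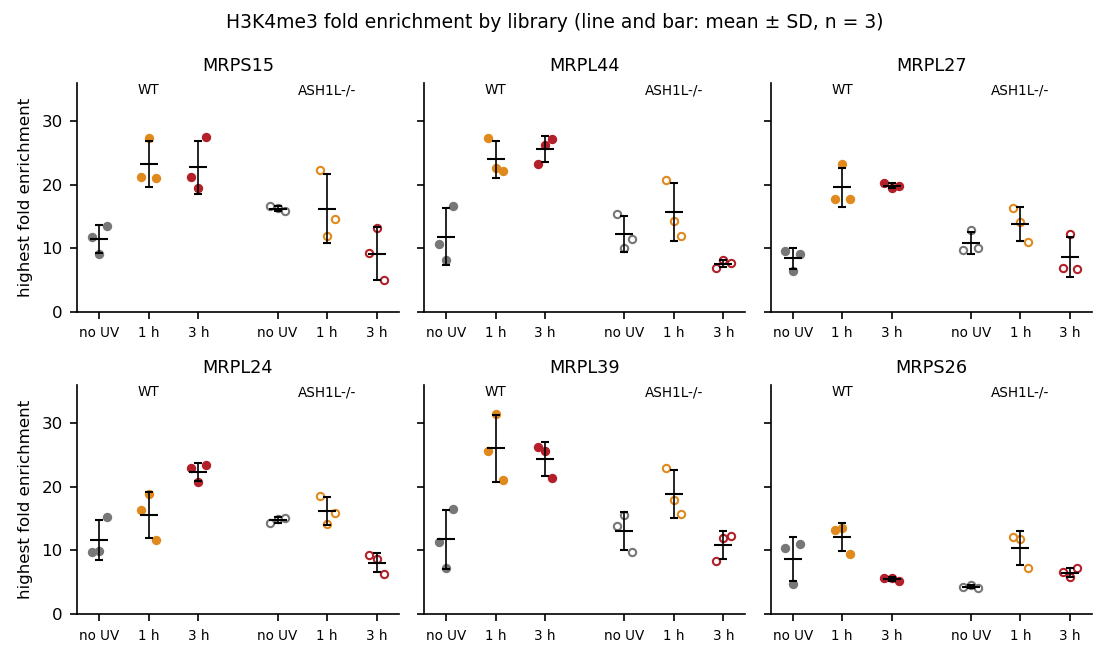
Highest H3K4me3 fold enrichment over input in the promoter window (vertical axis, linear scale) of MRPS15, MRPL44, MRPL27, MRPL24, MRPL39 and MRPS26 in each library, in WT (filled) and ASH1L-/- cells (open) without UV and at 1 h or 3 h, with the mean and SD of the 3 libraries as line and bar. At MRPL44 the WT libraries lie between 22.1 and 27.4 after UV, while the ASH1L-/- libraries lie between 12 and 20.7 at 1 h and between 6.95 and 8.16 at 3 h.

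The UV change of the height differed between the genotypes at 6 of 76 members, each with the smaller change in ASH1L-/- cells, and at 0 in the other direction, beside 4.26% and 0.240% of all windows. They were MRPS15, MRPL44, MRPL27, MRPL24, MRPL39 and MRPL32, with log2 differences of -1.51 ± 0.32, -1.30 ± 0.29, -1.27 ± 0.29, -1.08 ± 0.28, -1.03 ± 0.30 and -0.86 ± 0.26 (SE). Their adjusted p-values were 0.00478, 0.00556, 0.00694, 0.0157, 0.0401 and 0.0433. MRPS15, homologous to a bacterial protein that binds the small subunit RNA early in assembly, had 11.7, 9.05 and 13.5 in WT without UV, 21.2, 27.4 and 21.1 at 1 h and 21.2, 19.5 and 27.4 at 3 h. In ASH1L-/- cells the values at MRPS15 were 16.6, 16.3 and 15.8, then 22.3, 11.8 and 14.6, then 9.28, 13.2 and 4.91. The WT libraries therefore rose and stayed high at both times, while those of ASH1L-/- cells were mixed at 1 h and below the unirradiated ones at 3 h. MRPL44 in ASH1L-/- cells had 15.4, 10.0 and 11.4, then 20.7, 14.3 and 12, then 6.95, 8.16 and 7.61. MRPL27 had 9.64, 12.9 and 9.99, then 16.3, 14.1 and 10.9, then 6.89, 12.2 and 6.77. At 3 h all ASH1L-/- libraries of MRPS15 and MRPL44 and 2 of 3 of MRPL27 were below the unirradiated ones. The count of 6 became 3 without unirradiated WT replicate 1 (all lower, beside 15 windows higher and 453 lower). It was also 3 without replicate 2 (1 higher and 2 lower, beside 43 and 237). MRPL44 lost its call without replicate 2 (adjusted p = 0.0513). MRPL24 lost its call without replicate 1 or 2 (0.0609 and 0.0688), and MRPL39 without any of 11 libraries. After centring, 8 members had the smaller change and 3 the larger in ASH1L-/- cells, beside 905 and 569 windows. MRPS15, MRPL44 and MRPL27 kept their calls (-1.33, -1.12 and -1.09, adjusted p = 0.0137, 0.00343 and 0.00458), MRPL32 lost it (-0.68, adjusted p = 0.127), and MRPS26 gained one in the opposite direction (1.11, adjusted p = 0.0046).

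Separated by time, a choice made after the values had been seen, differences between the genotypes were called at 3 h, and on the values as deposited none was called at 1 h. At 1 h 23 members had risen in WT, beside 37.1% of windows, and in ASH1L-/- cells 25 had risen and 0 fallen, beside 35.1% and 0.127%. The median log2 changes over members were 0.46 and 0.47, and 0 members were called for the difference between genotypes in either direction (limma), beside 0.0225% of windows with the larger change in ASH1L-/- cells and 0.157% with the smaller. At an unadjusted p under 0.05 there were 6 members and 1171 windows. On centred values 3 members were called at 1 h, all with the larger change in ASH1L-/- cells. Beside them stood 169 windows with the larger and 331 with the smaller change. Whether the difference itself changed from 1 h to 3 h was not tested. At 3 h 20 members were higher in WT, beside 12.4% of windows, whereas in ASH1L-/- cells 6 were lower, beside 2.14%. On centred values at 3 h 16 members were higher and 1 lower in WT, beside 1301 and 803 windows. In ASH1L-/- cells 8 were higher and 10 lower, beside 1186 and 764 windows. On the values as deposited, the medians at 3 h were 0.35 in WT and -0.13 in ASH1L-/- cells over members, and 0.27 and -0.06 over all windows. The difference at 3 h was called at 22 members with the smaller change in ASH1L-/- cells, beside 13.9% of windows, and at 1, MRPS26, in the other direction (1.17, adjusted p = 0.0301), beside 0.592%. The median difference at 3 h was -0.55 over members and -0.30 over all windows. The 22 differences ranged from -1.94 at MRPS15 to -0.92 at MRPS18A. The 6 members called lower in ASH1L-/- cells at 3 h were MRPL55, MRPS15, MRPL24, MRPL3 and the pair MRPL46 and MRPS11, which share 1 peak, with log2 changes from -1.18 to -0.82. The height of the whole library moved as well: the median over members was 10.0 to 10.9 in unirradiated ASH1L-/- libraries, 11.9 to 16.9 at 1 h and 7.82 to 9.09 at 3 h, and over all windows it was 6.80 to 7.20, 8.48 to 12.4 and 5.98 to 6.83. The corresponding medians over members in WT were 9.60 to 14.4, 14.1 to 18.8 and 15.3 to 17.4. On centred values the difference at 3 h was called at 14 members in the direction of a smaller change in ASH1L-/- cells and 6 in the other. Beside them stood 1521 and 1405 windows.

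**Figure D5:**
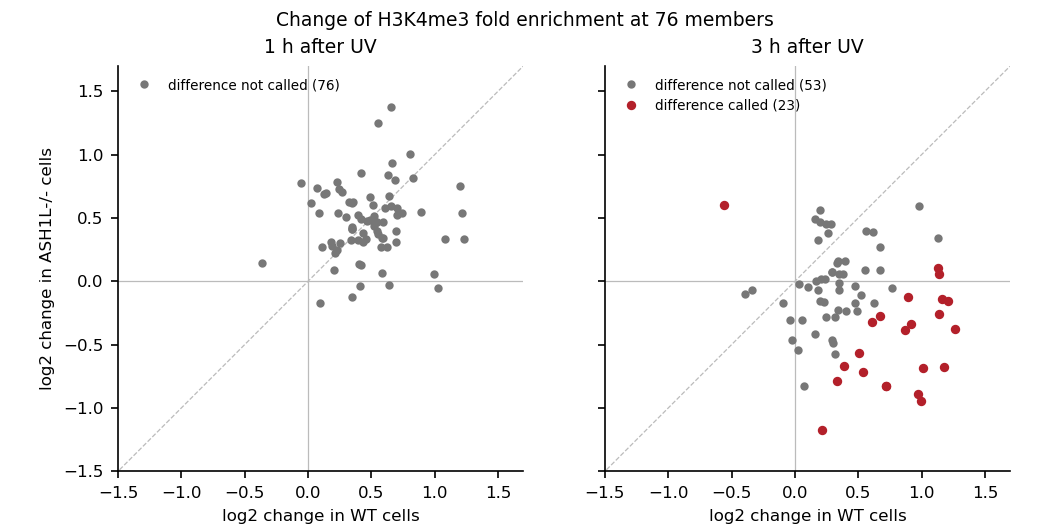
Log2 change of the highest H3K4me3 fold enrichment from the unirradiated group in ASH1L-/- cells (vertical axis) against that in WT cells (horizontal axis) at 1 h (left) and 3 h (right), one point for each of the 76 members, with the line of equal change dashed and called differences between the genotypes in red. At 3 h 23 members are called, 22 of them below the line of equal change, and at 1 h none is called.

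Without UV the height was lower in ASH1L-/- than in WT cells at 6 members and higher at 1, beside 14.3% and 0.585% of all windows. The median log2 difference was -0.19 over members and -0.35 over all windows. On centred values the balance turned, with 13 members higher and 1 lower, beside 1015 and 534 windows. MRPL28 had a fold enrichment of 8.97, 6.16 and 7.58 in WT and 3.68, 3.40 and 3.29 in ASH1L-/- cells, a log2 difference of -1.12 ± 0.26 (SE, adjusted p = 0.00536) that held without any 1 library. The next were MRPL36 (-0.97 ± 0.25), MRPS26 (-0.93 ± 0.27), MRPS24 (-0.82 ± 0.27) and MRPL57 (-0.74 ± 0.25), with adjusted p of 0.0112, 0.0178, 0.0369 and 0.0402. MRPL38, at -0.70 ± 0.24 (adjusted p = 0.0476), was the last. MRPL13 was higher, with 14.1, 18 and 20.4 in WT and 29.0, 24.5 and 27.5 in ASH1L-/- cells (0.64 ± 0.19, adjusted p = 0.0204). The ranges of the genotypes did not overlap at MRPL28, MRPL36, MRPS26, MRPL57 and MRPL13, and overlapped at MRPS24. On centred values MRPL28 was still called lower (-0.72, adjusted p = 0.0167) and MRPL13 higher (1.04, adjusted p = 0.00787), and MRPL36, MRPS26, MRPS24 and MRPL57 were not called (-0.57, -0.54, -0.43 and -0.35). The number called was 1, 14 and 2 without WT replicates 1, 2 and 3, and 3 without each of the ASH1L-/- replicates. In the same order, 493, 4108, 279, 1206, 816 and 1130 windows were called lower, beside 30, 58, 39, 33, 39 and 41 higher.

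Some members were to be described whatever their values. MRPS12 was covered over 2503, 2085 and 3286 bp in unirradiated WT, and its UV changes of 223 ± 235 bp in WT and 183 ± 235 bp in ASH1L-/- cells were smaller than their standard errors. MRPL12, which forms the stalk that recruits translation factors and also binds the mitochondrial RNA polymerase, was covered over 3215, 2971 and 3658 bp, with changes of 268 ± 104 bp (adjusted p = 0.0607) and 47.5 ± 104 bp (0.751). MRPL58, a peptidyl-tRNA hydrolase that became part of the large subunit, had 1787, 1781 and 1944 bp, with changes of 182 ± 79.3 bp (0.0854) and 205 ± 79.3 bp (0.0684). Its height rose in WT, by 0.59 ± 0.21 on the log2 scale (adjusted p = 0.0361). The 3 MRPS18 genes, paralogues whose promoters lie on different chromosomes or apart on the same one, did not behave as a block. MRPS18B gained length in both genotypes, by 632 and 475 bp, MRPS18A by 247 ± 101 and 206 ± 101 bp without a call (adjusted p = 0.0709 and 0.136), and MRPS18C, at 3457, 3650 and 3978 bp already near the full window, changed by 79.8 ± 113 and 98.2 ± 113 bp (0.561 and 0.518). In height MRPS18A and MRPS18B rose in WT by 0.62 ± 0.17 and 0.47 ± 0.16 (0.00918 and 0.0264) and MRPS18C changed by 0.26 ± 0.18 (0.25). The differences among the 3 genes were not tested.

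The other genes of mitochondrial translation were followed with 62 genes: 5 ribosomal proteins without an MRP symbol, 14 translation factors, 26 factors of ribosome assembly and ribosomal RNA modification and 17 mitochondrial tRNA synthetases. In WT 23 of the 62 gained covered length after UV (median change 229 bp) and in ASH1L-/- cells 16 (221 bp), with 0 lower in either. Of the assembly factors 13 of 26 gained length in WT and 11 of 26 in ASH1L-/- cells. Among them TFB1M, the methyltransferase that modifies the small subunit RNA, rose by 322 ± 108 bp in WT (adjusted p = 0.0372) and 624 ± 108 bp in ASH1L-/- cells (adjusted p = 0.00237), and MTERF3 by 482 ± 93.8 and 293 ± 93.8 bp (0.00364 and 0.035). TUFM, the mitochondrial elongation factor that carries aminoacyl-tRNA, rose by 482 ± 97.5 bp in WT (adjusted p = 0.0045). MTRFR, a factor that rescues stalled ribosomes, was the only one called for a difference of the UV changes of covered length between the genotypes (-452 ± 95.7 bp, adjusted p = 0.0372). Without UV its window was covered over 290 ± 78.1 bp more in ASH1L-/- than in WT cells (adjusted p = 0.0497). FASTKD2 and MTG2 were also longer there without UV, by 559 and 384 bp (adjusted p = 0.0436 and 0.0309). In height 20 of the 62 rose in WT and 1, FASTKD2, in ASH1L-/- cells (1.03 on the log2 scale). Without UV the height of FASTKD2 was lower in ASH1L-/- than in WT cells (-0.91, adjusted p = 0.0136, limma). AURKAIP1, NOA1, MTG1, CARS2, TACO1 and RBFA were also called lower in height there without UV. The change in height was smaller in ASH1L-/- cells at 7 genes: VARS2, PARS2, MTIF3, TSFM, YBEY, OXA1L and GUF1, by -1.41 to -1.02. The cytosolic ribosomal protein genes had 15 of 77 members with a gain of length in WT and 19 in ASH1L-/- cells, with medians of 138 and 148 bp, and 16 with a gain of height in WT. In these lists too the counts sit beside the shares of all windows given above, and the lists were not tested against each other.

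XPC peaks showed no called change at any of these promoters. None of the 77 members tested was called in any of the 4 comparisons (limma), and 0% of all 18991 windows were called in each of them. At an unadjusted p under 0.05 there were 3 members after UV in WT, 2 after UV in ASH1L-/- cells, 0 for the difference and 4 between the unirradiated genotypes, beside 1482, 965, 292 and 987 windows in all. The peaks themselves were weak: 17 of the 19 lists held exactly 500000 peaks, and the share with a −log10 q of at least 1.3 was at most 2.24% in any list. The lowest −log10 p of a list lay between 1.00 and 1.47, so the covered lengths rest on unlike thresholds. The study itself used XPC peaks only to check that replicates were reproducible, and compared XPC by its continuous signal, which was not analysed here. The median length covered over members was 305 to 1876 bp in single libraries, and 2 to 27 members were at 0 in a list. In unirradiated WT alone the 4 libraries had medians of 1742, 957, 1362 and 305 bp, which is the spread between replicates of 1 group. After UV the median change was -249 bp over members in WT and -245 bp over all windows, and in ASH1L-/- cells -211 and -187 bp.

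The members with the smallest p-values are given for completeness. MRPS5 was covered by XPC peaks over 1802, 2658, 4000 and 1336 bp in unirradiated WT, 125, 761 and 938 bp at 1 h and 289, 1643 and 901 bp at 3 h (-1673 ± 680 bp, adjusted p = 0.534), with a single irradiated library above the lowest unirradiated one. MRPS24 and MRPS10 changed by -947 ± 419 and -860 ± 409 bp in WT (adjusted p = 0.589 and 0.623). In ASH1L-/- cells MRPL52, MRPS6 and MRPL42 changed by -1094 ± 395, -1729 ± 769 and -766 ± 391 bp (0.822, 0.951 and 0.951). For the difference between the genotypes the smallest p-values were those of MRPL52 (-843 ± 535 bp), MRPS5 (1536 ± 1009 bp) and MRPL4 (631 ± 461 bp), each with an adjusted p of 1. Between the unirradiated genotypes, MRPL18 had 2408, 1022, 1616 and 736 bp in WT and 0, 0 and 0 bp in ASH1L-/- cells (-1446 ± 588 bp, adjusted p = 0.788). XPC peaks were also shorter over the whole 5 Mb around MRPL18, where the log2 ratio of ASH1L-/- to WT was -2.85, below the 5th percentile of all bins at -2.07. The shared promoter of MRPL46 and MRPS11 differed the other way, by 1837 ± 775 and 1793 ± 773 bp (both adjusted p over 0.8). MRPL46 had 953, 1195, 543 and 0 bp in WT and 2404, 1800 and 3326 bp in ASH1L-/- cells, which did not overlap, and the ratio in its bin was 0.66. These bins hold many genes, so a value at a promoter and that of its neighbourhood cannot be told apart here.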

How the data were processed

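The members and lists were chosen with earlier results of these data known. Per the labels and the study's methods, the authors trimmed reads with Trim Galore 0.6.5 and aligned them to hg38 with BWA 0.7.17-r1188. They filtered them with SAMtools 1.7, Picard and bedtools 2.29.2 and called peaks for each library with MACS2 2.2.7.1. The control was pooled, from input samples for H3K4me3 and from immunoprecipitates of XPC-/- cells for XPC. Libraries with a shared control are not independent in fold enrichment. A difference between controls cannot be told apart from one between groups. The deposited lists give the position of each peak, its fold enrichment over the control (a ratio to input, or to XPC immunoprecipitates of XPC-/- cells) and its −log10 p and −log10 q. The 18 input and 6 XPC-/- samples were not analysed here, and 1 marker gene is not reported here. Libraries are labelled as biological replicates.

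For each promoter the bases covered by peaks and the log2 of the highest fold enrichment were computed. Windows covered in at least 3 libraries (14745 for H3K4me3, 18991 for XPC), or with an H3K4me3 peak in all 18 for fold enrichment (13343), were fitted with limma 3.58.1 (group means, trended and robust variances, Benjamini-Hochberg adjustment over all windows, two-sided, 0.05). MRPL45 and MRPL23 (fold enrichment) and MRPL23 (length) were thus not tested. The fit was tested on simulated data. Those data had no limit at 4000 bp and no shift of whole libraries, so the test does not cover these features of the lists. Named members were the 5 longest and shortest at baseline, up to 5 increases and 5 decreases called per comparison, made up to 3 by the smallest p, MRPS12, MRPL12, MRPL58, the MRPS18 genes and members that share a window. MRPL38, MRPL54, MRPL32, MRPL55, MRPL3, MRPS18A at 3 h and the genes of the other lists were named after their values were seen. Alternatives were another window, scaling, peak thresholds, filters, the replicate number as a block, and each library left out. The separate times and the scaling to all peaks were chosen after seeing the data.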

Additional observations from a re-analysis of the deposited data

Results flagged for a closer look

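The UV change differed between the genotypes at 7 members by the test of the difference itself. The covered length of MRPS36 changed by 719 bp more in ASH1L-/- than in WT cells. The log2 change of H3K4me3 fold enrichment was smaller in ASH1L-/- cells at MRPS15 (-1.51), MRPL44 (-1.30), MRPL27 (-1.27), MRPL24 (-1.08), MRPL39 (-1.03) and MRPL32 (-0.86). The median over all windows in the ASH1L-/- libraries at 3 h was also low, 5.98 to 6.83, beside 6.80 to 7.20 without UV, and its part in these differences was not tested beyond the centred values given with them.

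In XPC covered length, the 4 unirradiated WT libraries were screened only at the 10 members named for XPC, at 2 of which a single library stood far from the others. In unirradiated WT replicate 4, MRPS24 had 0 bp where the other libraries had 1641, 1595 and 1420 bp, and MRPS6 had 0 bp where the others had 2907, 2869 and 3258 bp. About 1 in 20 groups is singled out in this way by chance, and this library also had the lowest median over members, 305 bp.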

How the results depend on the processing

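With H3K4me3 lengths scaled to an equal total over all windows, 9 members (3 higher and 6 lower) were called for UV in WT, 11 for UV in ASH1L-/- cells and 8 between the unirradiated genotypes. Scaled to an equal length of all peaks, these were 37 (all lower), 1 and 0, with 0 for the difference of the UV changes, and the reversed changes were MRPS11 -460, MRPS18B -535, MRPL43 -519 and MRPS15 -133 bp for UV in WT and MRPL36 254 bp for the difference. Windows of 1 kb each side can be covered whole and then show no gain. With them 14 members were called in WT, beside 2541 windows higher and 4 lower. In ASH1L-/- cells it was 9, beside 2052 and 64. For the difference it was 3 (1 higher and 2 lower), beside 69 and 109, and the baseline median was 1835 bp. Keeping only peaks enriched at least 5-fold, the counts were 6 (WT) and 15 (ASH1L-/-), beside 610 and 1890 windows called higher. MRPL36 was then 1074 bp for the difference. At 3 h alone the counts were 12 and 17, beside 1745 and 1713 windows called higher. For fold enrichment, centred values gave 6 (WT), 11 (difference) and 14 (between unirradiated genotypes, 13 of them higher), and with the replicate block as well 6, 10 and 12. Alone, 1 h gave 25 for UV in ASH1L-/- cells and 0 for the difference, and 3 h gave 6 (all lower) and 23. Centred, 1 h gave 7 (WT, 3 higher and 4 lower, beside 402 and 260 windows) and 3 (difference, all higher). At 3 h centred values gave 17 (WT), 18 (ASH1L-/-, 8 higher and 10 lower) and 20 (difference). For most scaled or centred counts the windows called are given with the comparison above. The cause of these shifts was not tested.

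Whether the replicate numbers pair the samples was not settled. For covered length, correlations between samples of the same number ran from -0.11 to 0.29, with a median of 0.095. Between different numbers the median was -0.036. For XPC they ran from -0.21 to 0.44 (medians 0.033 and -0.0042). For fold enrichment they ran from -0.035 to 0.15 (medians 0.030 and -0.018). The main fits used no pairing. With the replicate block the counts for length were 29, 25, 1 and 6 and for height 26, 3, 7 and 7. The order is WT, ASH1L-/-, difference and baseline. For XPC the counts were 0, and the windows called with the block are not given here.

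Leaving out 1 library moved the counts for length from 3 to 46 (WT), 11 to 31 (ASH1L-/-), 1 to 6 (difference, with more lower than higher at 6) and 2 to 17 (baseline), and those for height from 7 to 37, 0 to 9, 3 to 9 and 1 to 14. Where a count without a library is given with a comparison above, the windows called stand beside it. The baseline median ranged from 2283 to 2508 bp, and XPC stayed at 0. The XPC difference of MRPL52 ranged from -1398 to 28.6 bp, the latter without unirradiated ASH1L-/- replicate 1. Read depth is unknown from peak lists, and a window of 4000 bp hides any longer peak.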
